A study of Mus musculus with 4 samples.

Results

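The genes that encode the proteins of the cytoplasmic ribosome (RP genes) were examined for NR2F1 signal at their promoters in cells of the embryonic mouse hindbrain. Merging the called peaks of 4 libraries, with an overlap of 1 bp as the minimum, gave 263639 regions. A merged region was taken as an RP promoter when it reached within 1 kb of an annotated start of a protein-coding gene whose symbol is Rpl, Rps, Rplp or Rpsa with digits and an optional letter. This gave 81 regions at 77 genes, 43 of the large subunit, 31 of the small subunit and 3 of the stalk, with *Rps27l*, a copy of *Rps27*, counted because its symbol meets the rule. Regions were compared between libraries where each of the 4 had called a peak and 2 or more reached 10 cut sites. This held for 79 RP regions, among 35770 of the genome, of which 12178 lie at a promoter. All 77 genes had a region compared. The remaining 2 regions are side regions of *Rps10* with at most 43 cut sites in any library, and *Rpl18* and *Rps14* have a second region each.

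The data are single-cell CUT&Tag libraries made with an antibody against NR2F1 (COUP-TFI), an orphan nuclear receptor that acts as a transcription factor in the developing brain. In CUT&Tag the antibody directs a transposase fused to protein A and protein G to the bound chromatin, and each cut site is counted. Cells came from rhombomere 4 of the hindbrain and neighbouring tissue of embryonic day (E) 10.5 embryos, 2 libraries of WT and 2 of Fam5snv/snv, which is homozygous for a single-base knock-in in cRE2, a conserved element near *Gata2*. All embryos of both genotypes carried the Isl1MN-GFP reporter, a transgene that labels motor neurons, and cells were sorted on GFP. As a model of motor neurons the cells are limited by the sort and the pooling. The gate was opened to GFP-negative cells at the end of each sort, and each library pooled embryos, 26 in either WT library and 8 and 16 in the Fam5snv/snv libraries. Counts were summed over all barcodes of a library, so a change in the share of cells and a change in signal per cell cannot be told apart. All 4 libraries used the anti-NR2F1 antibody, so signal is given without the background of a control antibody.

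Ribosomal proteins assemble with ribosomal RNA into the small subunit, which reads the mRNA, and the large subunit, which joins the amino acids. Their genes are transcribed in every growing cell, mostly from short CpG-rich promoters without a classical TATA box, and their mRNAs usually begin with a tract of pyrimidines (5′TOP) through which mTOR signalling controls translation. ETS-family factors such as GABP, and YY1 and Sp1, are known to act at RP promoters. NR2F1 binds direct repeats of the hexamer AGGTCA, a sequence recognised by many nuclear receptors.

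The 4 libraries differed in depth and in the peaks called. They held 1377 to 2740 barcodes and 3083946 to 10341894 cut sites in peaks, and both Fam5snv/snv libraries were deeper than both WT libraries. WT replicate 1 stood apart, with 42168 peaks against 137996 to 170993 in the others, and peaks covered a median of 621 bp of a compared region in it against 1272 to 1728 bp in the others. Any pair of libraries shared 3 to 12 barcodes, at most 0.799% of the smaller one. Of the marker genes fixed for the sort, 7 of 8 motor neuron genes, 4 of 4 progenitor genes, 4 of 4 neural crest genes, 1 of 4 endothelial genes and 1 of 5 blood genes had a promoter region compared. Among the genes with no region compared were *Slc5a7* of the motor neuron list, *Pecam1*, *Cdh5* and *Kdr* of the endothelial list and *Gata1*, *Spi1*, *Hba-a1* and *Ptprc* of the blood list. The regions of the motor neuron list summed to 496 and 486 in WT against 560.2 and 537 in Fam5snv/snv (CPM, counts of cut sites scaled to a common library total), and those of the progenitor list to 317 and 337 against 289 and 265. Those of the neural crest list summed to 50.1 and 104.8 against 66.99 and 51.5, the endothelial region had 19.97 and 25.7 against 26.9 and 19.2, and the blood region had 16.5 and 34.5 against 16.5 and 21.1, so WT replicate 2 was the highest library on the neural crest and blood lists. The part of cell composition in the results below was not tested.

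The promoters of 6 RP genes are shown as sequence, 3 from the RP genes with the highest signal and 3 from those with the lowest, since the members differ most in level. Each runs 5′ to 3′ from 100 bases before to 20 bases after the RefSeq start (GRCm38.p6), in lower case with matches in capitals to AGGTCA, to the ETS core CCGGAA or to the YY1 motif AAGATGG on either strand. They lie at chr7:45128726-45128845 on the minus strand for *Rpl13a*, chr3:130730318-130730437 on the minus strand for *Rpl34*, chr2:180257279-180257398 on the plus strand for *Rps21*, chr3:90213629-90213748 on the minus strand for *Rps27*, chrX:102189372-102189491 on the minus strand for *Rps4x* and chr5:121204401-121204520 on the plus strand for *Rpl6*.
Rpl13a: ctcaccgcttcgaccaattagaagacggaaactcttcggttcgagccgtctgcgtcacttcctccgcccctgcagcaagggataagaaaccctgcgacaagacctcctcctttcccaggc
Rpl34: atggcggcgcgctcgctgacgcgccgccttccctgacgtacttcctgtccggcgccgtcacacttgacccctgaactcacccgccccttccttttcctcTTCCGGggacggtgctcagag
Rps21: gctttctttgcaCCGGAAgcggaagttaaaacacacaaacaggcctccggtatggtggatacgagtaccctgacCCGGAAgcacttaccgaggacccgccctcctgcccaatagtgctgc
Rps27: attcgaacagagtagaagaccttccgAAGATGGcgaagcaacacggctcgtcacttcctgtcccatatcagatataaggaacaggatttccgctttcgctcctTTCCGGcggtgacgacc
Rps4x: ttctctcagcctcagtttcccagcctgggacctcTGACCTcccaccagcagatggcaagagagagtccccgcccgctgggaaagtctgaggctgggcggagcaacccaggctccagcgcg
Rpl6: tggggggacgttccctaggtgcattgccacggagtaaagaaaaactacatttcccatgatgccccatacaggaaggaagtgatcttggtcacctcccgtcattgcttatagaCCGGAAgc
The capitals show an ETS core in *Rpl34* and *Rps21* among the high promoters and in *Rps27* and *Rpl6* among the low ones, and neither an ETS core nor an AGGTCA in *Rpl13a*. *Rps4x*, one of the lowest, holds an AGGTCA, on the opposite strand.

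NR2F1 signal at RP promoters differed over a wide range between genes. Levels are given as CPM per kb of called peak, that is, the CPM of a region divided by the length that peaks cover in that library, so that genes with long and short peaks can be set side by side. The mean of the 2 WT libraries ran from 15.1 (*Rpl37a*) to 109.9 CPM per kb (*Rpl13a*), with a median of 28.6 CPM per kb over the 77 genes. The values of WT replicate 1, the library with the shortest peaks, are the highest of the 4 libraries at 77 of the 77 genes.

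*Rpl13a*, a large subunit protein also known as part of a complex that silences inflammatory mRNAs, had the highest level, at 146 and 74.0 in WT against 49.4 and 53.9 in Fam5snv/snv (CPM per kb; region chr7:45126765-45130554, mm10). *Rpl27*, a large subunit protein, followed with 138 and 77.9 in WT against 66.7 and 53.3 in Fam5snv/snv. Both lay above every other RP gene in WT replicates 1 and 2, and the gap between the WT replicates of each was larger than the gap between these genes. *Rps19*, the small subunit gene first linked to Diamond-Blackfan anaemia, had 88.4 and 58.2 in WT against 55.2 and 44.0 in Fam5snv/snv. *Rpl34*, of the large subunit, had 94.2 and 45.2 in WT against 39.1 and 48.1 in Fam5snv/snv. Both WT values of *Rps19* lie between those of *Rpl34*, so their order is not set. *Rps21*, a short protein of the small subunit, had 65.8 and 47.3 in WT against 35.3 and 32.4 in Fam5snv/snv. *Rps29*, a small zinc-binding protein of the small subunit head, had 58.7 and 45.5 in WT against 35.8 and 32.2 in Fam5snv/snv. Among all 12178 compared promoter regions *Rpl13a* ranked 36 and *Rpl27* 40 by WT level.

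At the other end, *Rpl37a*, a zinc-binding large subunit protein, had 20.1 and 10.1 in WT against 12.3 and 9.01 in Fam5snv/snv (CPM per kb). *Rpl6*, a large subunit protein, had 23.0 and 8.32 in WT against 9.30 and 10.1 in Fam5snv/snv, from only 21 and 12 cut sites in the WT libraries. *Rpl32*, of the large subunit, had 25.5 and 6.08 in WT against 8.89 and 7.51 in Fam5snv/snv. The WT replicates of these genes differed by more than the means of neighbouring genes did, so the order among the lowest members is not set. *Rps27*, a zinc-binding small subunit protein, had 19.4 and 15.7 in WT against 16.1 and 11.3 in Fam5snv/snv. *Rpl17*, a protein at the exit of the large subunit tunnel, had 23.7 and 11.6 in WT against 19.0 and 11.4 in Fam5snv/snv, and the start chosen for it lies outside the region. *Rps4x*, the X-linked copy of a small subunit protein, had 22.9 and 13.7 in WT against 8.60 and 9.03 in Fam5snv/snv. In each of the 4 libraries none of these 6 reached the level of any of the 6 highest genes.

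**Figure D1:**
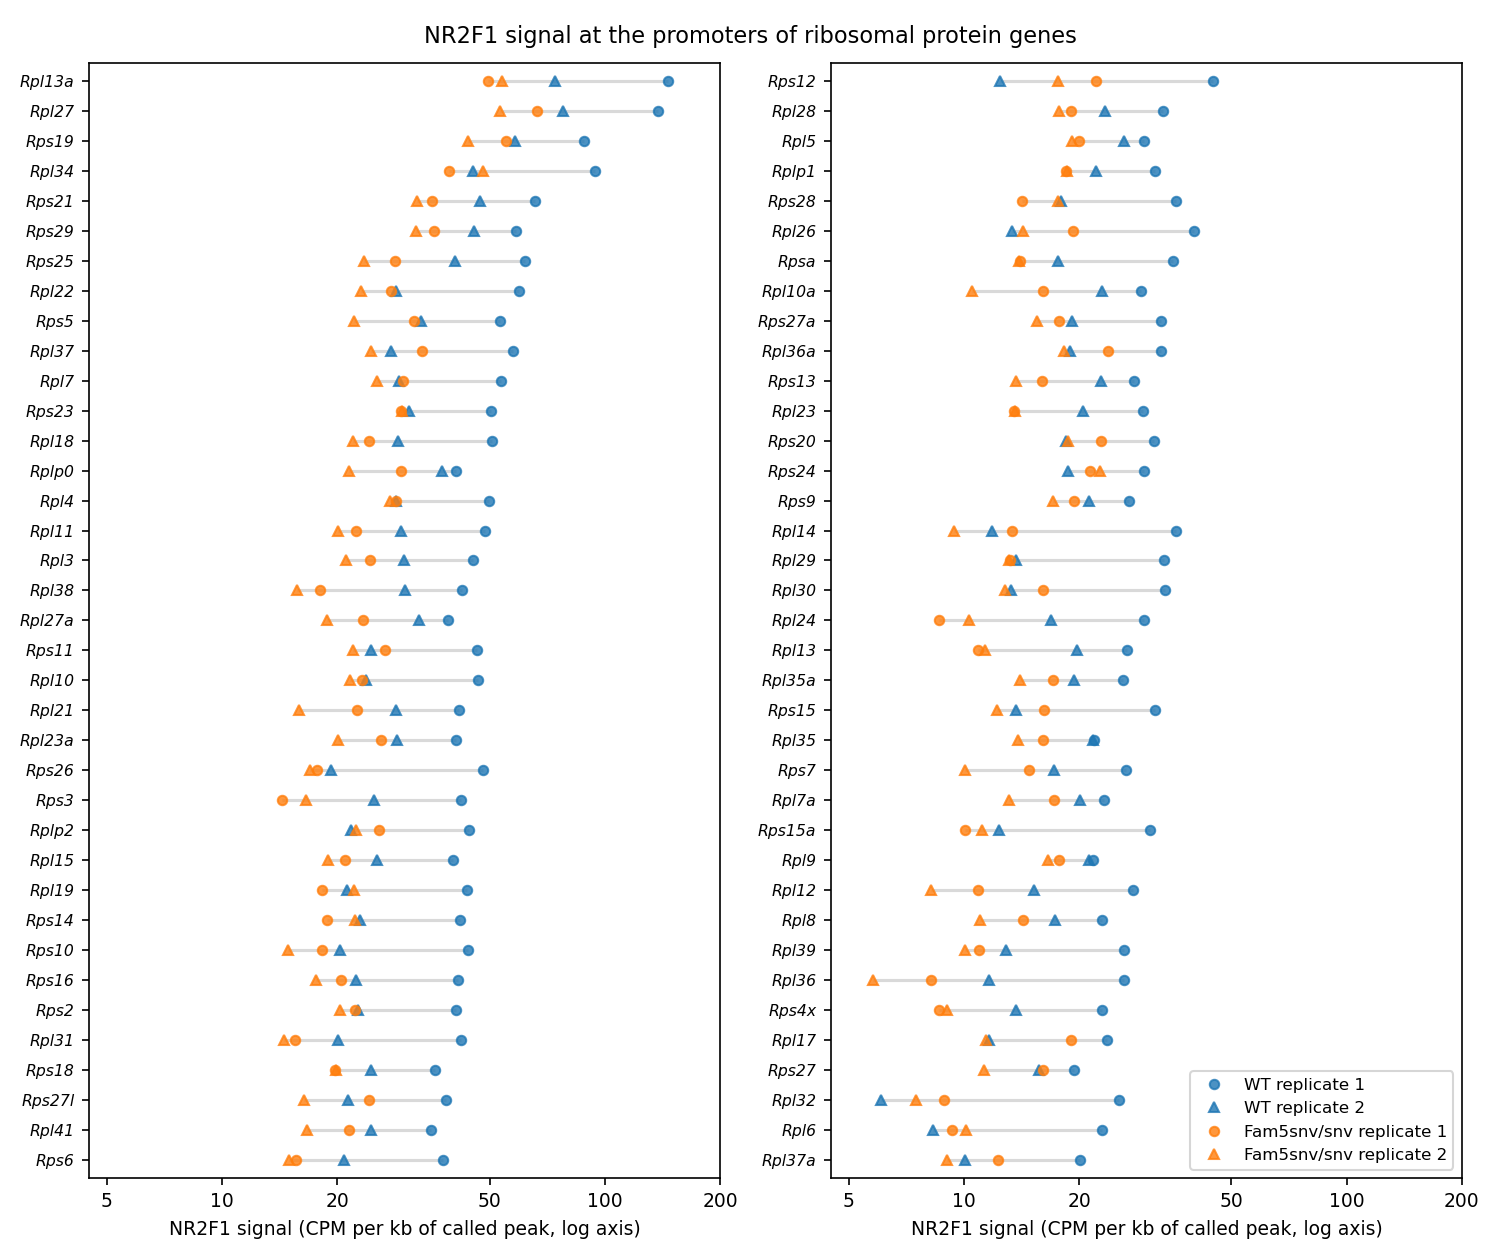
NR2F1 signal of 74 RP genes in each library (CPM per kb of called peak, log axis), ordered from the highest WT mean (upper left) to the lowest (lower right); each point is 1 library and the grey line spans the 4. *Rpl13a* and *Rpl27* stand above the other genes in both WT libraries, and most genes form a continuous range around the median WT level of 28.6 CPM per kb.

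The 40 RP genes not named by the rule for members lay between 19.6 and 51.2 CPM per kb (WT mean). Large and small subunit genes had like levels: the median in WT replicate 2 was 21.8 CPM per kb over 43 large subunit genes and 20.8 over 31 small subunit genes, and in Fam5snv/snv replicate 2 it was 15.8 and 17.1. Libraries ranked the members alike. Over the 79 regions, which share library depth and peak calling, the Spearman correlation of CPM per kb was 0.722 between the WT replicates and 0.909 between the Fam5snv/snv replicates, and 0.826 and 0.915 over all compared promoter regions.

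RP promoters had higher median signal per kb than other promoters in each of the 4 libraries. The median over 79 RP regions was 35.9, 21.3, 18.9 and 16.7 CPM per kb in WT replicates 1 and 2 and Fam5snv/snv replicates 1 and 2, against 28.8, 16.9, 14.1 and 12.4 over 12099 other promoter regions. RP regions were higher in 4 of 4 libraries, by 1.24-fold to 1.35-fold, with a mean log2 ratio of 0.38 ± 0.061 (SD, n = 4). The exact sign-flip permutation test over the 4 libraries gave a two-sided p of 0.125, the smallest that 4 libraries allow (0.167 after Benjamini-Hochberg adjustment over the 4 sets compared). By WT level, the 77 RP genes ran from percentile 15.5 (*Rpl37a*) to 99.7 (*Rpl13a*) among compared promoter regions, with a median of 66.1.

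The difference was in signal per length of peak. In total CPM per region RP promoters were 1.02-fold to 1.09-fold above other promoters, and their called peaks were shorter, at 0.863 to 0.948 of the length over other promoters. Genes with comparable housekeeping roles had levels close to RP genes. Promoters of mitochondrial RP genes, whose proteins form the ribosome of the organelle, were below RP promoters in 4 of 4 libraries, with RP levels 1.02-fold to 1.14-fold above them (exact sign-flip p = 0.125, two-sided, adjusted 0.167). Promoters of respiratory chain genes had RP levels at 0.929-fold to 1.02-fold of theirs (mean log2 ratio −0.011 ± 0.065 (SD, n = 4), exact sign-flip p = 1, two-sided).

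**Figure D2:**
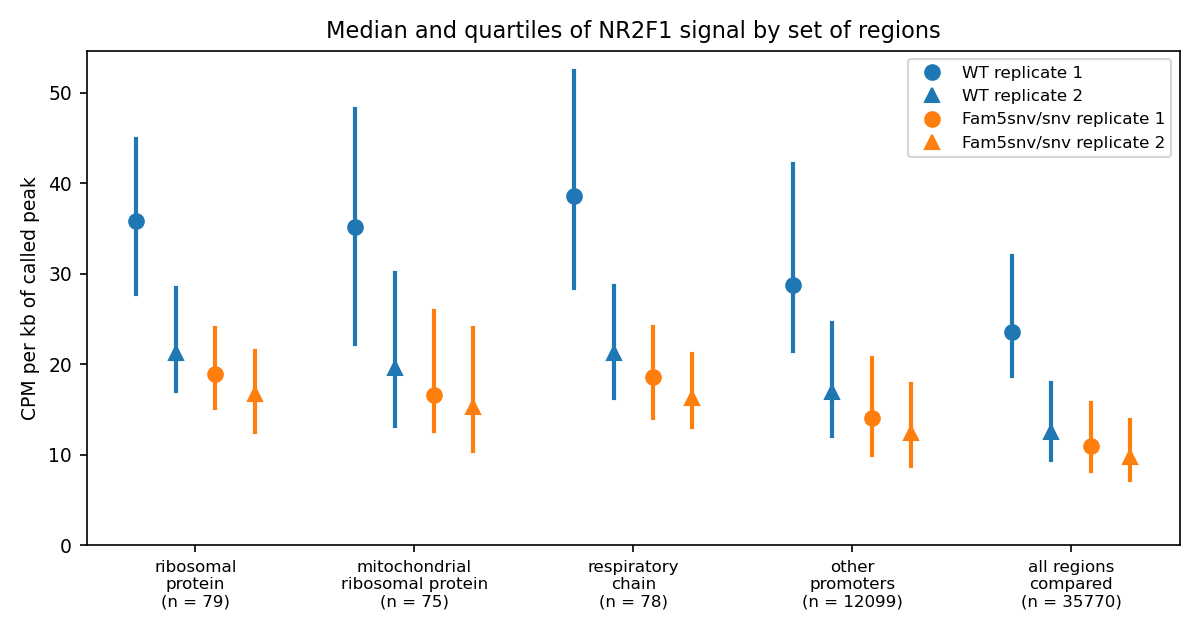
Median (symbol) and quartiles (bar) of NR2F1 signal in CPM per kb of called peak for each set of regions in the 4 libraries. In each library the RP median lies above those of other promoters and of all compared regions and within the quartiles of the mitochondrial RP and respiratory chain sets.

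All 77 RP genes had a compared region, against 12811 of 21847 (58.6%) other protein-coding genes, 75 of 78 mitochondrial RP genes and 79 of 86 respiratory chain genes. The annotated start lay in a called peak of every library for 73 of 77 RP genes, and 70 of 79 regions held a single peak in each library. RP promoters were often shared: 18 of 79 regions (22.8%) also held the start of another coding gene, such as *Zc3h10* with *Rpl41* or *Vps52* with *Rps18*, against 1332 of 12099 other promoter regions (11.01%). Cut sites of a shared region cannot be split between its genes.

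By median, called peaks reached about as far upstream as downstream of RP starts, though single peaks could be one-sided. In WT replicate 1 the peak reached 353 bp upstream and 2871 bp downstream at *Rpl41*, and 1680 and 291 bp at *Rpl13a*. In the median RP gene the peak reached 427, 738, 773 and 829 bp upstream and 460.0, 733, 792 and 862 bp downstream of the start in WT replicates 1 and 2 and Fam5snv/snv replicates 1 and 2. In other genes it reached 430.0, 697, 745 and 830.0 bp upstream and 527, 880.0, 945 and 1057 bp downstream. By these medians, peaks of other genes reached further into the gene than upstream of it in each library, and RP peaks differed little between the sides. The log2 ratio of median downstream to median upstream extent differed by −0.28 ± 0.069 (SD, n = 4, RP minus other genes, below 0 in 4 of 4 libraries). The two-sided exact sign-flip p was 0.125, the smallest possible.

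**Figure D3:**
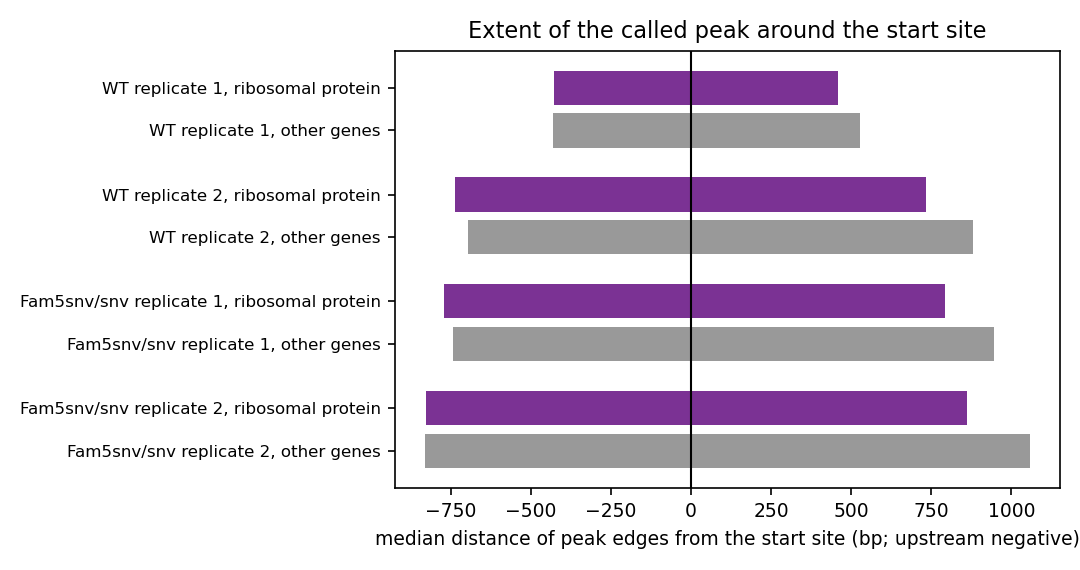
Median distance from the annotated start to the upstream edge (negative) and downstream edge (positive) of the called peak, in bp, for RP genes (purple) and other protein-coding genes (grey) in each library. RP bars are near even on both sides, 829 and 862 bp in Fam5snv/snv replicate 2, whereas bars of other genes are longer downstream, 830.0 and 1057 bp.

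Motifs were searched from 250 bases before to 50 bases after the annotated start, on both strands, in the genome (GRCm38.p6). AGGTCA, the COUP-TF core, was found in 8 of 77 RP promoters (10.4%, exact binomial 95% interval 4.59% to 19.4%) and in 11.7% of 12811 other genes with a compared promoter. A direct repeat of this core, with 1 base between the copies, was found in 0 of 77, with an upper bound of 4.68%, and in 0.0546% of the other genes. These shares differ by less than the interval of the RP set. Both motifs overlap by construction, since the repeat holds the core. Among the genes with the core are *Rpl18*, *Rpl24*, *Rpl35a*, *Rps14*, *Rps29*, *Rps3* and *Rps4x*. The RefSeq start of *Rpl18* lies 2614 bp from the start searched, and the same window around it holds no AGGTCA.

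Stretches of at most 30 bases around the core, in RefSeq promoters (GRCm38.p6), are shown for 4 of these genes, since AGGTCA is the sequence NR2F1 is known to bind. Capitals mark the core, here on the strand opposite to the gene, at chr16:55966025-55966052 for *Rpl24*, chr16:33056378-33056407 for *Rpl35a*, chr7:99483901-99483930 for *Rps3* and chrX:102189440-102189469 for *Rps4x*.
Rpl24: atgcaaaaagTGACCTtcaggttttacc
Rpl35a: tctctctgtctcTGACCTttgctttctggc
Rps3: tgtagtcaatgaTGACCTtaaacttgtgac
Rps4x: gcctgggacctcTGACCTcccaccagcaga
The median WT level was 27.9 CPM per kb over the 8 genes with the core and 28.6 over the 69 without it, with ranges of 18.3 to 52.1 and 15.1 to 109.9.

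Motifs of other factors were searched the same way. The ETS core CCGGAA was found in 37 of 77 RP promoters (48.1%, 36.5% to 59.7%) and in 26.4% of the other genes, and AAGATGG, the YY1 motif, in 13.0% (6.41% to 22.6%) and 6.99%. GGGCGG (Sp1) was found in 54.5% (42.8% to 65.9%) and 64.8%, and TATAAA in 10.4% (4.59% to 19.4%) and 6.85%. A 5′TOP start, a C within 5 bases of the annotated start followed by at least 4 pyrimidines, was found on the coding strand in 36.4% (25.7% to 48.1%) and 18.4%. These shares hold for the start chosen for each gene. The RefSeq start lies 575, 493 and 301 bp from it at *Rps25*, *Rpl35* and *Rps10*, whereas at *Rpl34* and *Rps2* the starts are the same. How far the choice of start changed the 5′TOP shares, or the levels with and without a 5′TOP start, was not tested. For the ETS core and the 5′TOP start the share of other genes lies below the RP interval, and for YY1, Sp1 and the TATA box it lies within it. From 100 bases before the start instead, YY1 and the TATA box were each found in 10.4% of RP promoters (4.59% to 19.4%), and their shares in other genes, 4.36% and 3.21%, lie below that interval. GC content had a median of 57.0% in RP promoters and 61.3% in the other genes. Median WT level was 31.1 CPM per kb over the 37 RP genes with the ETS core and 25.9 over the 40 genes without it. With and without GGGCGG, which was not more frequent in RP promoters, it was 32.1 and 26.7. It was 27.6 and 28.6 for the YY1 motif, 29.3 and 28.6 for TATAAA and 28.4 and 28.6 for the 5′TOP start. Matches are a description of the letters and not of bound sites.

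**Figure D4:**
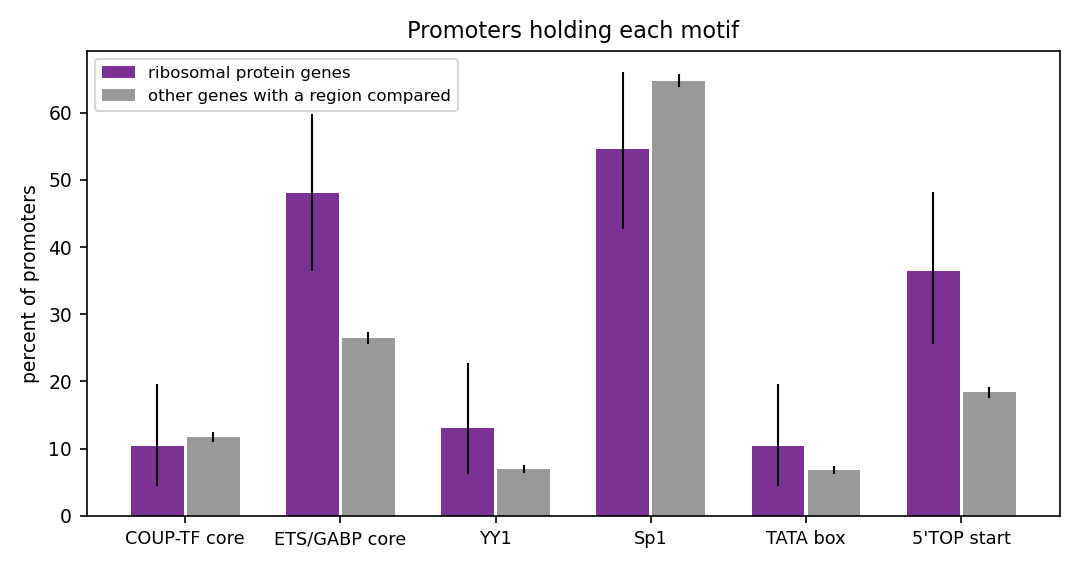
Percent of promoters with each motif from 250 bases before to 50 bases after the start, for 77 RP genes (purple) and 12811 other genes with a compared promoter (grey), with exact 95% binomial intervals as black lines. The ETS core (48.1% against 26.4%) and the 5′TOP start (36.4% against 18.4%) are more frequent in RP promoters, while the COUP-TF core (10.4% against 11.7%) is not.

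NR2F1 signal at RP promoters was next compared between Fam5snv/snv and WT, to ask whether the cRE2 variant came with a difference at these genes. With edgeR's quasi-likelihood test and Benjamini-Hochberg adjustment over 35770 regions, 0 of 79 RP regions were higher and 0 were lower in Fam5snv/snv at an adjusted p under 0.05, where the background was 0% higher and 0% lower. The smallest adjusted p of a member was 0.573. At an unadjusted p under 0.05, 1 RP region was higher and 1 lower, against 5.29% higher and 3.37% lower over all compared regions. DESeq2 also called 0 RP regions, against 1.02% higher and 0.542% lower. The edgeR test was run on simulated counts, with changed regions drawn from all 35770 and 1 biological coefficient of variation for every region. It found 42% of regions at 0.25-fold, 8% at 0.5-fold, 0% at 2-fold and 68% at 4-fold, so differences of 2-fold were mostly missed in that setting. RP regions had median counts of 88, 93, 219 and 216 cut sites in WT replicates 1 and 2 and Fam5snv/snv replicates 1 and 2. All compared regions had 42, 47, 126 and 139, so the rates for RP regions may differ.

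Fold changes are log2 values from edgeR, Fam5snv/snv minus WT, with the TMM normalization. The median over the 79 RP regions was −0.21, and 60 of 79 lay below 0, a background of 48.3% over all compared regions (median 0.024). Other promoters had the same median, −0.21, with 71.0% of all compared promoter regions below 0. Both WT libraries lay above both Fam5snv/snv libraries in CPM at 34 of 77 RP genes and below them at 5, and the groups overlapped at 38. The background was 21.4% and 23.2% over all compared regions and 38.5% and 9.87% over other promoter regions, so the RP counts were read against promoters as a whole. Scaling by the number of barcodes moved the median of all regions to 0.97 and that of RP regions to 0.74, with 0 of 79 below 0, so a sign is read under the TMM scaling. Relative to the median of all regions, RP promoters lay at −0.23 under both scalings, but this gap moved with the peak rule. It was −0.77 without requiring a peak in every library and −0.11 with peaks of at least 20 cut sites. With covered length as an offset it was 0.079, and among regions with at least 50% covered it was 0.00099. The compared regions held 99.5% of the cut sites of WT replicate 1 and 74.1% to 79.9% of those of the others. Of the large subunit genes 36 of 43 and of the small subunit genes 22 of 31 lay below 0, with medians of −0.17 and −0.21.

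Fold changes moved with the length of the called peaks. Over the 79 RP regions, which share libraries and peak calling, Spearman's correlation of log2 fold change with the log2 ratio of covered length (Fam5snv/snv over WT) was 0.632, and it was 0.705 over other promoters. When covered length was taken into the model as an offset, the RP median was −0.68 and that of all regions −0.76. The 35 RP regions covered by at least 50% in every library had a median of −0.29, with 30 of 35 below 0. Refitted and rescaled among 8900 regions with that coverage they had a median of −0.0055, where all 8900 had −0.0065 and the promoters among them −0.051. The part of peak calling in the fold changes was not tested further.

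**Figure D5:**
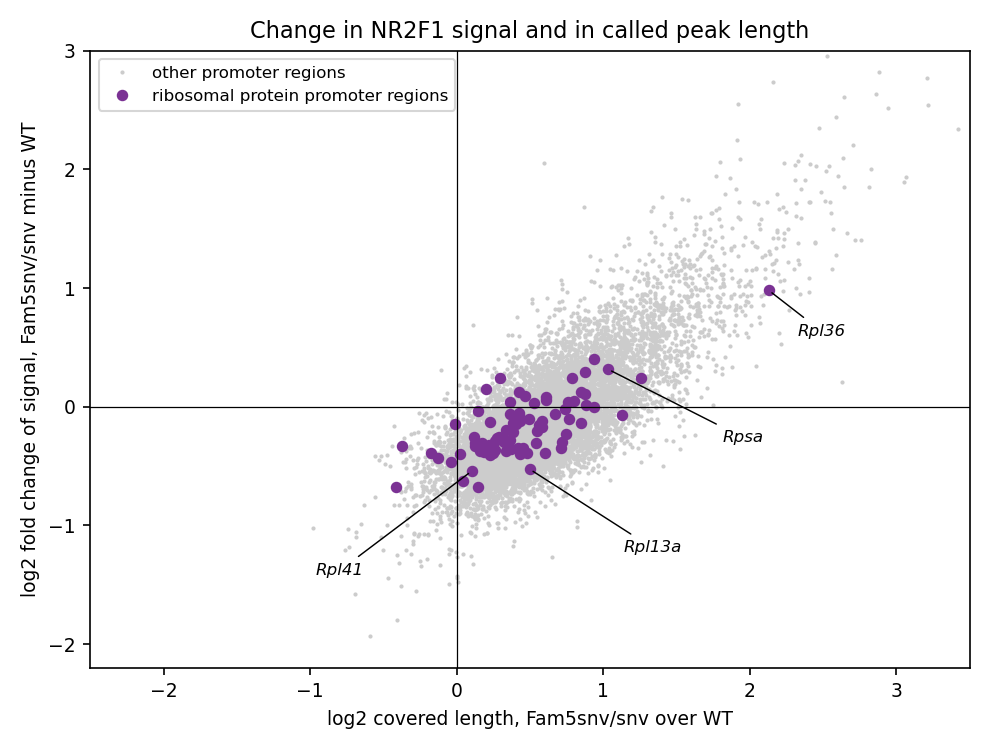
Log2 fold change of signal (Fam5snv/snv minus WT) against log2 ratio of the length covered by peaks, for 79 RP promoter regions (purple) and other promoter regions (grey; 11 lie outside the axes). RP regions follow the other promoters, with *Rpl36* at the upper right and *Rpl41* and *Rpl13a* among the lower values.

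*Rpl36*, a large subunit protein, had the highest fold change. It had 18.2 and 29.9 in WT against 42.9 and 52.1 in Fam5snv/snv (CPM), so the genotypes did not overlap. Its log2 fold change was 0.98 ± 0.293 (SE), with a 95% interval of 0.29 to 1.67 and an adjusted p of 0.573 (edgeR). Peaks at *Rpl36* covered 693 and 2563 in WT against 5244 and 8987 in Fam5snv/snv (bp), and per kb the values were 26.3 and 11.7 in WT against 8.19 and 5.80 in Fam5snv/snv, lower in Fam5snv/snv. The direction at *Rpl36* therefore depended on the measure. Without WT replicate 2 *Rpl36* passed the test, with an adjusted p of 0.00251.

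*Rpsa*, the small subunit protein also known as a laminin receptor, had 23.8 and 27.8 in WT against 30.9 and 33.4 in Fam5snv/snv (CPM), again without overlap, and a log2 fold change of 0.32 ± 0.245 (SE). *Rps18*, of the small subunit head, had 28.4 and 23.9 in WT against 28.4 and 35.7 in Fam5snv/snv, where Fam5snv/snv replicate 1 lay only just above WT replicate 1. *Rpl13*, of the large subunit, had 12.6 and 15.8 in WT against 17.4 and 16.3 in Fam5snv/snv, and *Rps12*, a small subunit protein, had 27.0 and 22.5 in WT against 32.5 and 26.2 in Fam5snv/snv with overlap of the genotypes. *Rps18*, *Rpl13* and *Rps12* did not pass the test, with adjusted p from 0.728 to 0.840 (edgeR).

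*Rpl41*, which encodes the shortest ribosomal protein, had 113 and 83.4 in WT against 72.9 and 62.2 in Fam5snv/snv (CPM) and a log2 fold change of −0.54 ± 0.232 (SE), in a region that also holds the start of *Zc3h10*. *Rps23*, a protein of the decoding centre, had 52.5 and 40.4 in WT against 32.4 and 34.9 in Fam5snv/snv and a log2 fold change of −0.47 ± 0.230 (SE). *Rpl13a* had 288 and 201 in WT against 186 and 153 in Fam5snv/snv and a log2 fold change of −0.53 ± 0.261 (SE). At *Rpl41*, *Rps23* and *Rpl13a* both WT libraries were above both Fam5snv/snv libraries, and the adjusted p was 0.578 to 0.595 (edgeR). The other high members *Rpl27*, *Rps19*, *Rpl34*, *Rps21* and *Rps29* had log2 fold changes of −0.40, −0.37, −0.37, −0.37 and −0.21, with no adjusted p under 0.604. High and low members were chosen by WT level, which also enters the fold change, so their signs are not read as a result. Spearman's correlation of log2 fold change with WT CPM per kb was −0.458 over the 79 RP regions and −0.536 over other promoters.

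Members passed the test only in fits with a single WT library, where calls over all regions rose as well. Most of them passed without WT replicate 2. Without it, 1 RP region (*Rpl36*) was higher and 5 (*Rpl13a*, *Rpl27*, *Rpl34*, *Rpl41* and *Rps19*) were lower in Fam5snv/snv at an adjusted p under 0.05 (edgeR), against a background of 11.4% higher and 6.21% lower. That fit compares WT replicate 1, the library with few and short peaks, as the only WT library, and assumes that it varies like the Fam5snv/snv pair. Without WT replicate 1, 1 member was lower and 0 were higher, against 4.17% higher and 1.17% lower. Without either Fam5snv/snv library 0 members passed.

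A list of genes mutated in Diamond-Blackfan anaemia, a failure of red cell production in humans, was fixed without aiming to be complete, and 8 of them are given here. Their WT level ran from 21.8 (*Rps7*) to 73.3 CPM per kb (*Rps19*). Their log2 fold change lay below 0 at 7 of 8, against 71.0% of all compared promoter regions, with no adjusted p under 0.626 (edgeR). *Rps24*, the exception, had 28.7 and 29.9 in WT against 29.7 and 35.3 in Fam5snv/snv (CPM). *Rpl5* and *Rpl11*, which with 5S ribosomal RNA bind MDM2 when ribosome assembly fails, had 25.2 and 29.5 in WT against 27.6 and 24.7 in Fam5snv/snv and 49.7 and 50.6 in WT against 29.9 and 48.2 in Fam5snv/snv. The WT replicates of *Rpl11* were close to each other and the Fam5snv/snv replicates were not, and *Rpl5* overlapped between genotypes. *Rps26*, *Rps10*, *Rps7* and *Rpl35a* had log2 fold changes of −0.35, −0.34, −0.12 and −0.14.

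Genes with known mouse mutants are given next. *Rpl38*, whose loss in Tail-short mice alters the axial skeleton and translation of *Hox* mRNAs, had 56.4 and 62.6 in WT against 42.0 and 51.3 in Fam5snv/snv (CPM), with a log2 fold change of −0.35 ± 0.212 (SE). *Rpl24*, altered in Belly spot and tail mice, had 20.7 and 24.6 in WT against 26.7 and 16.4 in Fam5snv/snv and −0.073 ± 0.340 (SE). *Rps20*, mutated in mice with dark skin, and *Rpl27a*, mutated in Sooty foot ataxia mice, had log2 fold changes of −0.14 and −0.17. All 4 lay below 0 with no adjusted p under 0.631, and only *Rpl38* had both WT libraries above both Fam5snv/snv libraries. Of all compared promoter regions 71.0% lay below 0, and 38.5% of other promoter regions had both WT libraries above.

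The stalk of the large subunit, which recruits elongation factors, is built from Rplp0 with Rplp1 and Rplp2. *Rplp0* had 41.0 and 39.4 in WT against 34.04 and 27.3 in Fam5snv/snv (CPM) and *Rplp2* had 37.1 and 32.7 in WT against 27.5 and 24.3 in Fam5snv/snv, with both WT libraries higher in each. *Rplp1* had 28.4 and 20.8 in WT against 28.4 and 23.5 in Fam5snv/snv, with overlap. Their log2 fold changes were −0.39, −0.43 and 0.08, and none passed the test (adjusted p from 0.614 to 0.944, edgeR). *Rps6*, the small subunit protein phosphorylated by S6 kinases downstream of mTOR, had 23.1 and 28.5 in WT against 31.7 and 23.9 in Fam5snv/snv, with overlap and a log2 fold change of 0.11 ± 0.282 (SE). The lowest members *Rps4x*, *Rpl17*, *Rps27*, *Rpl32*, *Rpl6* and *Rpl37a* had log2 fold changes of −0.0012, −0.33, 0.12, 0.25, 0.40 and −0.39 with SE from 0.396 to 0.609. The 40 RP genes not named by the rule had log2 fold changes from −0.62 to 0.089 and no adjusted p under 0.609. Of these 34 lay below 0, against 71.0% of all compared promoter regions.

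Other genes of translation were counted by list. All 19 genes for translation factors and other 5′TOP mRNAs had a compared region, with 0 called by edgeR, 17 below 0 and a median log2 fold change of −0.29. Their median level was 44.9, 27.4, 22.7 and 24.3 CPM per kb in WT replicates 1 and 2 and Fam5snv/snv replicates 1 and 2, above the RP median in each library. All 24 ribosome assembly genes had a compared region, with 0 called, 19 below 0 and a median of −0.32. Of 9 genes for regulators of RP transcription or translation, 0 were called and 8 lay below 0 (median −0.33), beside medians of −0.21 over other promoters and 0.024 over all regions. Of all compared promoter regions 71.0% lay below 0. Of 8 RP-like copies outside the rule, such as *Rpl3l* and *Rpl10l*, 4 had a compared region and 0 were called.

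Of all cut sites in compared regions, those at RP promoters made up 0.329% and 0.338% in WT against 0.306% and 0.291% in Fam5snv/snv, a difference of −0.035 percentage points. The genotypes did not overlap, and the exact permutation test gave a two-sided p of 0.333, the smallest that 2 against 2 libraries allow. Of the cut sites at promoters alone, RP regions held 0.618% and 0.640% in WT and 0.641% and 0.628% in Fam5snv/snv, with overlap (exact permutation p = 0.667, two-sided). Promoters as a whole held 53.1% and 52.8% of the cut sites in WT and 47.7% and 46.4% in Fam5snv/snv.

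Per cell the signal was sparse. With barcodes thinned to a depth of 567 cut sites, the lower quartile of WT replicate 1, 73.7% and 71.0% of WT barcodes and 70.9% and 66.4% of Fam5snv/snv barcodes had a cut site in an RP region, with exact binomial 95% intervals of 71.7% to 75.7%, 68.5% to 73.4%, 69.0% to 72.7% and 64.5% to 68.1%, which cover counting error only. The mean number was 1.89 and 1.55 cut sites per WT barcode and 1.40 and 1.27 per Fam5snv/snv barcode, over all 79 regions together. Thinning drew from all cut sites in a library's own peaks. Compared regions held 99.5% of them in WT replicate 1 and 74.1% to 79.9% in the others. RP regions held 0.327% and 0.263% of them in WT and 0.245% and 0.216% in Fam5snv/snv. The part of peak calling in the shares of barcodes was not tested. The 641 shallower barcodes of WT replicate 1 were left out and 0 of the other libraries. Counts per barcode and peak were even numbers in 76.3% to 81.1% of entries, so cut sites mostly came in pairs. Thinning drew single cut sites and could split pairs, more often in deeper libraries. The effect of this on the shares was not tested. Thinned to 879 cut sites, the shares were 84.5% and 79.9% of WT barcodes against 82.2% and 79.7% of Fam5snv/snv barcodes, so the genotypes overlapped (exact permutation p = 0.667, two-sided), and the difference was −1.24 percentage points against −3.76 at 567 cut sites. Unthinned, 75.7% and 88.5% of WT barcodes had one against 93.2% and 94.1% of Fam5snv/snv barcodes, in the order of median depth per barcode (879, 1867, 2694 and 2984 cut sites). The exact permutation p for the shares at 567 cut sites was 0.333, the smallest possible, two-sided.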

How the data were processed

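Single-cell CUT&Tag with an anti-NR2F1 antibody was analysed in 4 libraries, 2 WT and 2 Fam5snv/snv. The authors deposited, per library, called peaks with positions in mm10 (no heights) and a matrix of counts, whole numbers of cut sites for each barcode in each peak, called and counted per library with Cell Ranger ATAC per the labels. The matrix header gives software version 1.2.0, which differs from the Cell Ranger ATAC version named in the authors' published methods. Whether the header gives a format version was not settled. Since each library has its own peaks, a library with more or longer called peaks counts more of the cut sites of a region. Barcodes were as deposited, with no further filter and no doublet caller. The replicates are pools of embryos.

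Counts were summed per library over merged regions. Starts are those of basic transcripts of protein-coding genes in GENCODE M21 (GRCm38, the coordinates of mm10). Where a gene has several, 1 start was chosen by APPRIS rank and then the lower median position. Library totals for CPM are cut sites in compared regions, multiplied by the TMM factor of edgeR 4.0.16 (R 4.3.3). The test was the quasi-likelihood F test without block, with 2 residual degrees of freedom and a common biological coefficient of variation of 0.305, and Benjamini-Hochberg adjustment over 35770 regions. Levels were compared by exact tests over libraries. The test was checked on simulated data with 200 of 35770 regions changed, with 4 false calls. Alternatives were DESeq2 1.42.0, other scalings, count minimums, peak rules, windows, and leaving out each library. RP promoter sequences are from RefSeq (57 of 77 RP genes matched), motif shares from the genome for all 77. *Rps14* and *Rpl17* are not shown as sequence.

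Genes named are the 6 with the highest and 6 with the lowest WT level, the 5 with the smallest p in each direction, the listed Diamond-Blackfan anaemia genes, 4 genes with mouse mutants, 3 stalk genes, *Rps6* and *Rpsa*. Of the genes this rule names, 3 are not reported here, though they stay in every fit and count over all members. Members and lists were chosen with earlier results of these data known. P-values measure the spread between these pools, and those of edgeR and DESeq2 also draw on the spread at other regions.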

Additional observations from a re-analysis of the deposited data

How the results depend on the processing

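The count of 0 RP regions called between genotypes held in every alternative that kept all 4 libraries, and it ran from 0 to 6 when a library was left out. At an unadjusted p under 0.05, 7 of 79 RP regions were higher and 0 lower under barcode scaling, and 1 was higher and 6 lower with DESeq2, against 1 and 1 in the edgeR fit reported. Of all 35770 regions, 8708 were higher and 0 lower under barcode scaling, and 2504 were higher and 2470 lower with DESeq2. In the edgeR fit reported 1892 were higher and 1206 lower. The median log2 fold change of RP regions was 0.74 scaled by barcodes (all regions 0.97), −0.68 with the covered-length offset (−0.76), −0.0055 with at least 50% covered (−0.0065) and −0.11 with peaks of at least 20 cut sites, and from −0.27 to −0.14 leaving out a library. It moved by less than the replicate spread elsewhere. Without requiring a peak in every library, the median of all regions moved to 0.61. Over 35770 regions DESeq2 called 366 higher and 194 lower where edgeR called 0, and over the 8900 regions with 50% coverage edgeR called 14 and 4. The share of barcodes with an RP cut site differed by 11.6 percentage points without thinning, the other way. The RP level above other promoters and the RP share of cut sites in compared regions kept their direction under the peak, coverage and window rules run for each and without any 1 library, while the share of promoter cut sites differed by 0.0055 percentage points, the other way. A cause was not tested.

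A replicate block gave 0 RP calls and a median of −0.19, and same-numbered libraries did not deviate together (correlation 0.025 over all regions, −0.052 over RP regions), so the numbers were not taken to pair the libraries. Scaled by the number of barcodes, which moved the median of all regions from 0.024 to 0.97, the log2 fold change changed sign at 23 of 34 named genes with a value: *Rpl11* 0.57, *Rpl13a* 0.51, *Rpl17* 0.59, *Rpl24* 0.86, *Rpl27* 0.63, *Rpl27a* 0.80, *Rpl34* 0.69, *Rpl35a* 0.85, *Rpl37a* 0.43, *Rpl38* 0.57, *Rpl41* 0.48, *Rpl5* 0.86, *Rplp0* 0.58, *Rplp2* 0.55, *Rps10* 0.63, *Rps19* 0.62, *Rps20* 0.78, *Rps21* 0.60, *Rps23* 0.54, *Rps26* 0.68, *Rps29* 0.74, *Rps4x* 0.92, *Rps7* 0.85. With covered length as an offset, the log2 fold change changed sign at 11 of 34 named genes with a value: *Rpl13* −1.05, *Rpl32* −0.84, *Rpl36* −1.40, *Rpl6* −0.63, *Rplp1* −0.53, *Rps12* −0.47, *Rps18* −0.61, *Rps24* −0.13, *Rps27* −0.35, *Rps6* −0.92, *Rpsa* −0.90. With peaks of at least 20 cut sites, the log2 fold change changed sign at 3 of 33 named genes with a value: *Rpl24* 0.17, *Rpl5* 0.033, *Rps4x* 0.11. With at least 50% of a region covered in every library, the log2 fold change changed sign at 4 of 15 named genes with a value: *Rpl27a* 0.12, *Rpl35a* 0.16, *Rpl5* 0.22, *Rps29* 0.082. Without the TMM factor, the log2 fold change changed sign at 2 of 34 named genes with a value: *Rpl5* 0.0020, *Rps4x* 0.074. Without requiring a peak in every library, the log2 fold change changed sign at 1 of 34 named genes with a value: *Rps4x* 0.032. Leaving out a library in turn changed the sign at 13 named genes, with ranges of −0.82 to 0.044 for *Rpl17*, −0.46 to 0.24 for *Rpl24*, −0.37 to 0.0046 for *Rpl27a*, −0.11 to 0.72 for *Rpl32*, −0.69 to 0.045 for *Rpl34*, −0.82 to 0.19 for *Rpl37a*, −0.18 to 0.051 for *Rpl5*, −0.13 to 0.32 for *Rplp1*, −0.28 to 0.0031 for *Rps20*, −0.22 to 0.56 for *Rps27*, −0.50 to 0.37 for *Rps4x*, −0.11 to 0.30 for *Rps6*, −0.69 to 0.29 for *Rps7*.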
